A study of Mus musculus with 36 samples.

Results

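The 8 genes described here make up much of the epidermal growth factor (EGF) receptor system of the cell: the ligands *Ereg* (epiregulin), *Hbegf* (heparin-binding EGF-like growth factor), *Btc* (betacellulin), *Areg* (amphiregulin), *Tgfa* (TGF-α) and *Epgn* (epigen), the receptor *Egfr*, and *Errfi1* (MIG6), an inhibitor that acts inside the cell. They were chosen by gene name from a table of 53421 genes, and all 8 were found. The RNA came from a mouse fibroblast-like chondrocyte line that the labels give as wild type, given siRNA either against no mouse gene (the non-targeting pool, NT) or against *Ift88* (IFT88siRNA). Each group was harvested without IL-1β (0 h) and at 5 times under IL-1β at 10 ng/ml, namely 1, 2, 4, 8 and 24 h after its addition. Each of the 12 combinations has 3 libraries, which makes 36. The study asked how depletion of IFT88, a protein of the intraflagellar transport machinery that builds cilia, alters the cellular response to this inflammatory cytokine. All libraries came from 1 conditionally immortalised line, and the labels give the siRNA at 50 nM whereas the methods give a lower concentration. Every library without IL-1β was taken at 0 h, so the effects of IL-1β and of time in culture cannot be told apart.

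EGF receptor ligands are made as transmembrane precursors, and cell-surface proteases of the ADAM family release the mature growth factor. A bound ligand brings receptors together, which switches on their kinase domains and the RAS-ERK cascade and in turn raises a set of immediate early genes. The inhibitor encoded by *Errfi1* binds the active kinase domain of the receptor and is itself made in response to the signal. In cartilage the pathway is known for its part in growth plate remodelling and in the maintenance of the joint surface.

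Expression is given as CPM, the counts scaled to library size with TMM, which compares 1 gene between libraries, and as TPM, which takes transcript length into account as well and was used for all comparisons between genes. A gene was called higher or lower where the Benjamini-Hochberg adjusted p-value of edgeR's quasi-likelihood test was under 0.05 and the fold change was over 1.5. Total counts per library lay between 19337022 and 38304127, with a median of 21672803 in the NT and 25873754 in the IFT88siRNA libraries. Counting error is all that these depths bear on, since the reads carry no identifiers of single molecules. *Ift88* itself was lower in IFT88siRNA at each of the 6 times, with log2 fold changes between -2.12 and -1.47. The depletion was uneven at 8 h, where replicates 1, 2 and 3 of IFT88siRNA read 0.863, 0.911 and 2.898 TPM. All 3 were below the 5.39 to 7.36 TPM of NT. Between the groups 105 genes were called at 8 h, against 422 without replicate 3, 43 without replicate 1 and 47 without replicate 2. The part of this uneven depletion in the differences at 8 h was not tested. The fibroblast genes *Vim* and *Col1a2* had median TPM values of 2289 and 779, and of the cartilage genes *Comp*, *Sox9*, *Col2a1* and *Prg4* had medians of 16.1, 11.6, 3.15 and 1.27 TPM, whereas *Acan*, *Matn3* and *Col9a1* did not exceed 0.206, 0.452 and 0.106 TPM in any library. Of 8 macrophage and leukocyte markers, *Ptprc*, *Adgre1*, *Csf1r* and *Cd3e* did not exceed 0.161, 0.0406, 0.264 and 0.0317 TPM, while *Cd14*, *Cd68* and *Lyz2* had medians of 18.2, 6.66 and 2.52 TPM. The summed TPM of these 8 lay between 20.2 and 24.1 at 0 h, 36.9 and 39.0 at 4 h, 38.9 and 43.8 at 8 h and 45.6 and 49.9 at 24 h in NT cells, and between 33.4 and 36.1 at 8 h and at most 39.2 at 24 h in IFT88siRNA cells, and its part in the results was not tested. No endothelial marker of 5 had a mean of 1 TPM in any condition. Neither the labels nor the methods say that replicates were separate cultures, so p-values measure only the spread between these libraries, which may be technical. In bulk RNA, fewer cells that express a gene and less RNA per cell cannot be told apart.

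At 0 h in NT cells, *Errfi1* had the highest level per length of the 8 genes, at 65.5 ± 4.47 TPM (SD, n = 3). It was followed by *Hbegf* at 50.6 ± 0.213, *Ereg* at 33.5 ± 0.759 and *Egfr* at 27.7 ± 0.433 TPM. The other ligands were much lower, with *Areg* at 3.66 ± 0.41, *Btc* at 1.59 ± 0.269, *Tgfa* at 0.373 ± 0.05 and *Epgn* at 0.132 ± 0.124 TPM. No 2 neighbours in this order overlapped between their 3 libraries. After 1 h of IL-1β the order was headed by *Errfi1* at 988 ± 28.8 and *Ereg* at 356 ± 24.4 TPM, and *Hbegf* at 92.5 ± 5.72 TPM came next.

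*Epgn*, a ligand best known from epithelia, had between 0 and 8 counts per library, with no count in 5 of the 36 libraries. It did not pass the filter on low counts in any comparison, so no change of it was tested and it is 1 of the 8 genes but never among the 7 tested. In NT cells 3 of these 7 rose at 1 h (*Ereg*, *Hbegf* and *Errfi1*), where 18.7% of 16048 genes were called. *Egfr* joined them at 2 h, which made 4 of 7 against 27.3% of all genes, and *Btc* at 4 h, which made 5 of 7 against 28.7%. At 8 h the called genes were *Ereg*, *Areg*, *Btc* and *Errfi1*, 4 of 7 against 19.7%, and at 24 h 2 of 7 remained higher (*Ereg* and *Errfi1*) against 16.3%. None of the 7 was called lower than at 0 h. The median log2 fold change of the 7 was 0.37 at 1 h, 1.05 at 2 h, 0.72 at 4 h, 0.69 at 8 h and 0.36 at 24 h, where that of all genes tested was between -0.019 and -0.0077. With so few genes these shares are a description.

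**Figure D1:**
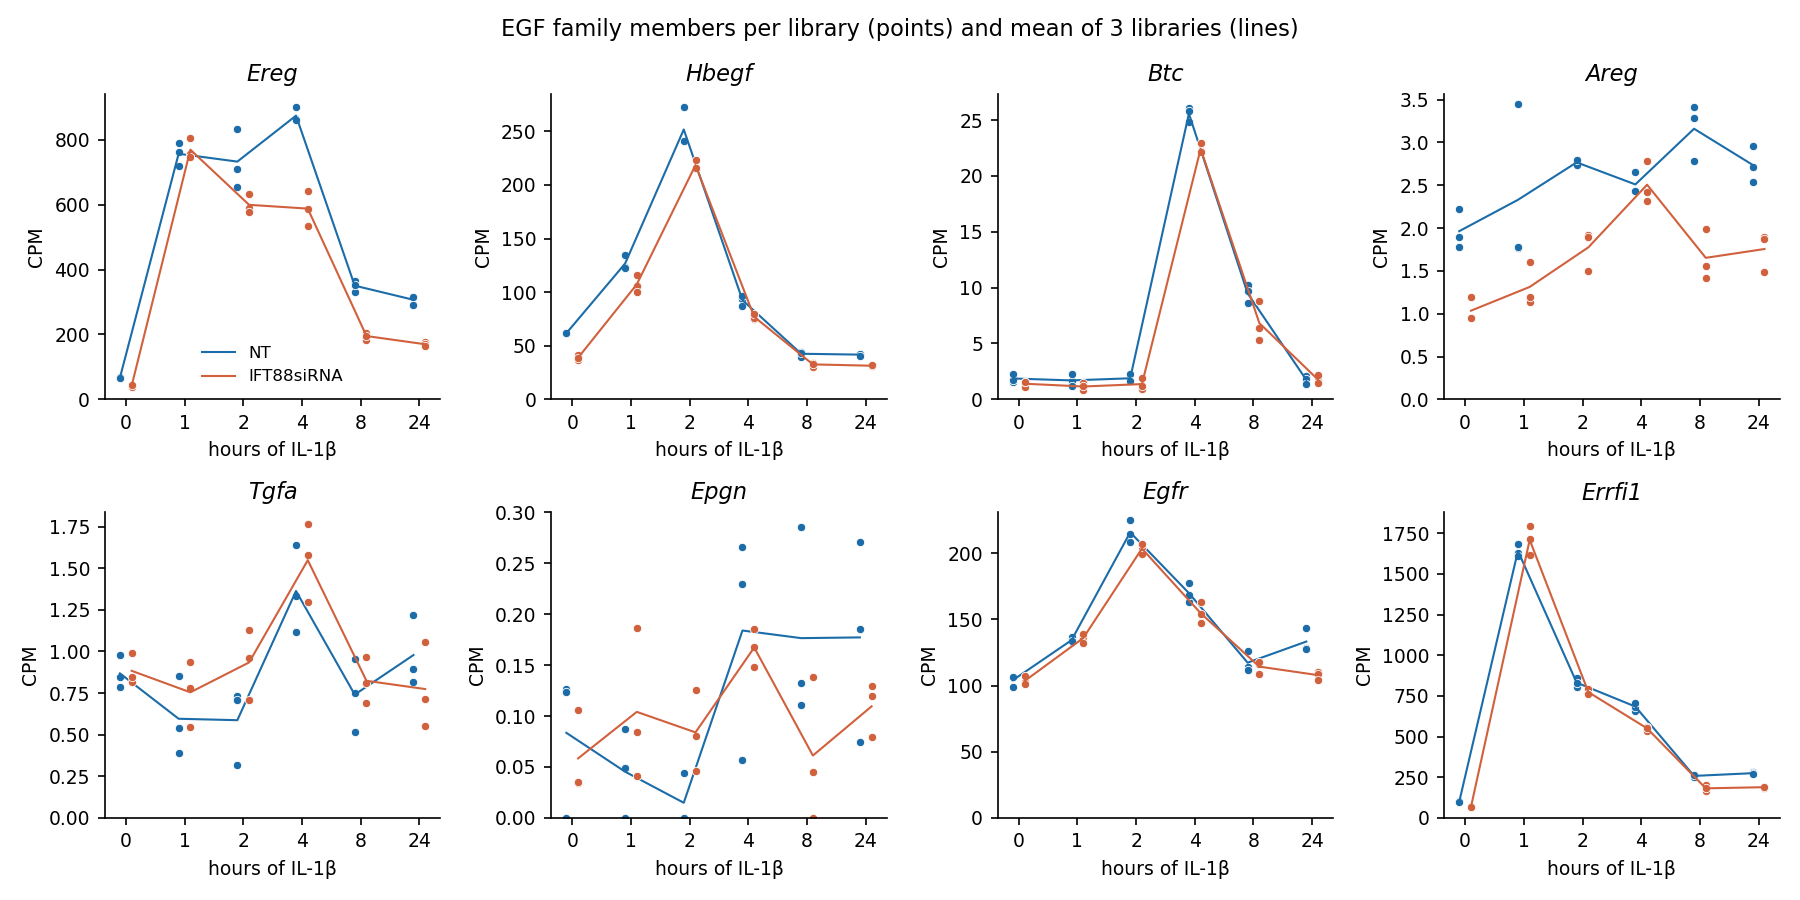
Level of each of the 8 genes in CPM (vertical axis, from 0) against hours of IL-1β (horizontal axis, evenly spaced), with 1 point per library and lines through the means of 3 libraries, NT in blue and IFT88siRNA in orange. *Errfi1* was highest at 1 h, *Hbegf* and *Egfr* at 2 h and *Btc* at 4 h in both groups, while *Epgn* stayed under 0.3 CPM in every library.

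*Ereg* encodes a ligand that binds EGFR and ErbB4 with low affinity. In NT cells its 3 libraries read 64.7, 68.2 and 66.9 CPM at 0 h and 720, 789 and 762 CPM at 1 h. They then read 654, 834 and 710 CPM at 2 h, 863, 900 and 860 CPM at 4 h, 366, 332 and 353 CPM at 8 h and 315, 315 and 291 CPM at 24 h. All libraries with IL-1β were far above all those without it, and the level formed a plateau from 1 to 4 h before it came down. The rise over 0 h was 11.4-fold at 1 h (log2 fold change 3.50 ± 0.069 SE, adjusted p = 1.35e-22), 13.2-fold at 4 h (3.72 ± 0.07) and 4.61-fold at 24 h (2.20 ± 0.067). Between 4 and 8 h it fell 2.50-fold (adjusted p = 1.1e-14), whereas the differences between 1 and 2 h, 2 and 4 h and 8 and 24 h were at most 1.2-fold and were not called. An antisense gene, *Gm19610*, overlaps *Ereg* by 152 bases and was counted without regard to strand, with 20 to 55 counts per library beside 1059 to 20223 for *Ereg*.

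*Hbegf* encodes a ligand of EGFR and ErbB4 that is held at the cell surface by heparan sulphate. Its 3 NT libraries read 61.7, 61.6 and 61.8 CPM at 0 h, 123, 123 and 134 CPM at 1 h and 241, 273 and 241 CPM at 2 h. They read 93.7, 87.1 and 96.8 CPM at 4 h, 44.0, 39.9 and 43.6 CPM at 8 h and 42.1, 42.5 and 40.6 CPM at 24 h. The peak at 2 h was therefore short, and by 8 h every library was below every library of 0 h. The rise was 2.05-fold at 1 h (log2 1.04 ± 0.054, adjusted p = 5.35e-14) and 4.07-fold at 2 h (2.02 ± 0.054, adjusted p = 4.16e-20), and the steps from 1 to 2 h, 2 to 4 h and 4 to 8 h were all called. At 4 h the level was 1.51-fold over that of 0 h, a call that was lost without replicate 1 (log2 0.58) and without replicate 3 (0.56). The levels at 8 and 24 h were 1.45-fold and 1.48-fold under that of 0 h (log2 -0.53 and -0.56), which is short of the 1.5-fold threshold on counts, but on the log2(TPM + 1) scale the differences were -0.61 and -0.65 and were called.

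*Btc* encodes a ligand that binds EGFR and ErbB4. In NT cells it read 1.56, 1.73 and 2.31 CPM at 0 h, 1.6, 1.22 and 2.26 CPM at 1 h and 1.77, 2.23 and 1.64 CPM at 2 h. It then read 26.1, 24.8 and 25.8 CPM at 4 h, 10.2, 8.59 and 9.67 CPM at 8 h and 2.06, 1.78 and 1.39 CPM at 24 h. The libraries of 0, 1, 2 and 24 h overlapped, and those of 4 and 8 h stood apart from them and from each other. The rise over 0 h was 13.8-fold at 4 h (log2 3.79 ± 0.14, adjusted p = 1.4e-17) and 5.10-fold at 8 h (2.35 ± 0.15, adjusted p = 2.67e-12). At 1, 2 and 24 h the log2 differences from 0 h were -0.15 ± 0.21, 0.015 ± 0.21 and -0.10 ± 0.20. The summed TPM of 8 epithelial markers was higher at 4 h, at 6.28 to 9.57 against 2.67 to 3.59 at 0 h in NT. Their highest values in any library were 6.96 TPM for *Cdh1*, 1.88 for *Krt18*, 0.975 for *Krt5* and 0.546 for *Krt8*. Those of *Epcam*, *Esrp1*, *Cldn4* and *Krt14* were 0.391, 0.353, 0.201 and 0.144 TPM. Of the 4 markers tested, 3 rose and 1 fell at 4 h in NT, where 28.7% of all genes were called. The part of these markers in the level of *Btc* was not tested.

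*Areg* encodes a ligand of EGFR with a heparin-binding stretch. It had 27 to 92 counts per library, so that each value carries a sizeable counting error. In NT cells it read 1.77, 1.90 and 2.22 CPM at 0 h, 1.76, 1.78 and 3.45 CPM at 1 h and 2.77, 2.73 and 2.80 CPM at 2 h. It read 2.44, 2.43 and 2.66 CPM at 4 h, 3.29, 2.78 and 3.41 CPM at 8 h and 2.95, 2.71 and 2.54 CPM at 24 h. From 2 h on all libraries were above those of 0 h, but the difference was small and was called only at 8 h, at 1.62-fold (log2 0.69 ± 0.19, adjusted p = 0.00367). That call was lost without replicate 1 (log2 0.60, adjusted p = 0.0612), while the difference at 24 h (0.48 ± 0.19) was called without replicate 3 (0.62). No step between consecutive times was called for *Areg*.

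*Tgfa*, whose product is a high-affinity ligand of EGFR, had 7 to 44 counts per library. The NT libraries read 0.845, 0.783 and 0.976 CPM at 0 h, 0.731, 0.319 and 0.711 CPM at 2 h and 1.64, 1.33 and 1.12 CPM at 4 h. In CPM the libraries of 4 h were above those of 0 and 2 h, although the difference from 0 h was not called (log2 0.65 ± 0.29, adjusted p = 0.054). It passed the thresholds in the fit with all 36 libraries (0.65, adjusted p = 0.0465) and without replicate 3 (0.86). The libraries of 24 h, at 0.898, 0.818 and 1.22 CPM, overlapped those of 4 h. In TPM those of 4 h, at 0.843, 0.593 and 0.388, overlapped the 0.327 to 0.425 of 0 h. The step from 2 to 4 h was a 2.34-fold rise (log2 1.23 ± 0.32, adjusted p = 0.0018) and that from 4 to 8 h a 1.87-fold fall (log2 -0.90 ± 0.30, adjusted p = 0.0145), which was lost without replicate 3 (-0.80, adjusted p = 0.0838).

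*Egfr* encodes the receptor of these ligands. Its NT libraries read 99.1, 107 and 106 CPM at 0 h, 133, 137 and 134 CPM at 1 h and 208, 225 and 214 CPM at 2 h. They read 163, 169 and 178 CPM at 4 h, 126, 114 and 112 CPM at 8 h and 144, 129 and 128 CPM at 24 h. In CPM every library with IL-1β was thus above those of 0 h, with the peak at the same time as that of *Hbegf*. In TPM replicate 3 of 8 h read 26.6, below the 27.2 to 28.1 of 0 h. The rise was 2.07-fold at 2 h (log2 1.05 ± 0.053, adjusted p = 1.58e-14) and 1.64-fold at 4 h (0.72 ± 0.053, adjusted p = 1.88e-11). On the log2(TPM + 1) scale the difference at 4 h was 0.36 and was no longer called. At 1, 8 and 24 h the difference was 1.29-fold, 1.13-fold and 1.28-fold with adjusted p-values of 3.43e-06, 0.00749 and 5.11e-06, all under the fold-change threshold. The antisense gene *Egfros* overlaps *Egfr* and had 2 to 18 counts per library.

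*Errfi1* had the largest rise of the 7 genes tested in NT cells. Its libraries read 103, 99.5 and 95.7 CPM at 0 h and 1627, 1611 and 1685 CPM at 1 h. They came down to 804, 860 and 830 CPM at 2 h, 660, 684 and 709 CPM at 4 h, 262, 250 and 261 CPM at 8 h and 283, 273 and 268 CPM at 24 h. No library with IL-1β overlapped those of 0 h. The rise was 16.5-fold at 1 h (log2 4.04 ± 0.046, adjusted p = 1.86e-27), 8.34-fold at 2 h (3.06 ± 0.044) and 2.76-fold at 24 h (1.47 ± 0.043, adjusted p = 4.03e-19). It fell between 1 and 2 h (1.98-fold, adjusted p = 1.06e-15) and between 4 and 8 h (2.66-fold, adjusted p = 4.68e-18), and the 8 and 24 h levels differed by 1.06-fold (adjusted p = 0.0881).

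Over consecutive times in NT cells, 3 of the 7 genes were called from 1 to 2 h, where 11.9% of all genes were: *Hbegf* and *Egfr* rose and *Errfi1* fell. From 2 to 4 h the 3 called were *Btc* and *Tgfa*, which rose, and *Hbegf*, which fell, against 27.1% of all genes. From 4 to 8 h 5 of 7 fell (*Ereg*, *Hbegf*, *Tgfa*, *Btc* and *Errfi1*) against 16.9%, and *Egfr* was 1.45-fold lower, a difference that was called without replicate 1 (log2 -0.63). From 8 to 24 h only *Btc* was called, a 5.47-fold fall, against 13.4% of all genes.

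The transcripts of the 6 ligands summed to 89.8 ± 0.565 TPM at 0 h in NT cells. *Hbegf* made up 56.3% ± 0.124 and *Ereg* 37.3% ± 0.63 of that sum (SD, n = 3). After 1 h the sum was 454 ± 27.8 TPM, of which *Ereg* made up 78.4% ± 1.41 and *Hbegf* 20.4% ± 1.09. *Hbegf* returned to 34.7% ± 1.37 at 2 h, when the sum was 500.3 ± 51.8 TPM. At 4, 8 and 24 h *Ereg* held 81.6%, 79.2% and 79.2%, and the sum came down from 466 ± 8.22 to 186 ± 6.17 TPM. *Btc* reached 3.57% ± 0.12 at 4 h, and *Areg*, *Tgfa* and *Epgn* together remained a small part at every time. In NT cells the pool of these 6 ligands, which does not include *Egf*, was therefore mostly *Hbegf* before IL-1β and mostly *Ereg* at every time after it. These are shares of transcripts and not of protein.

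**Figure D2:**
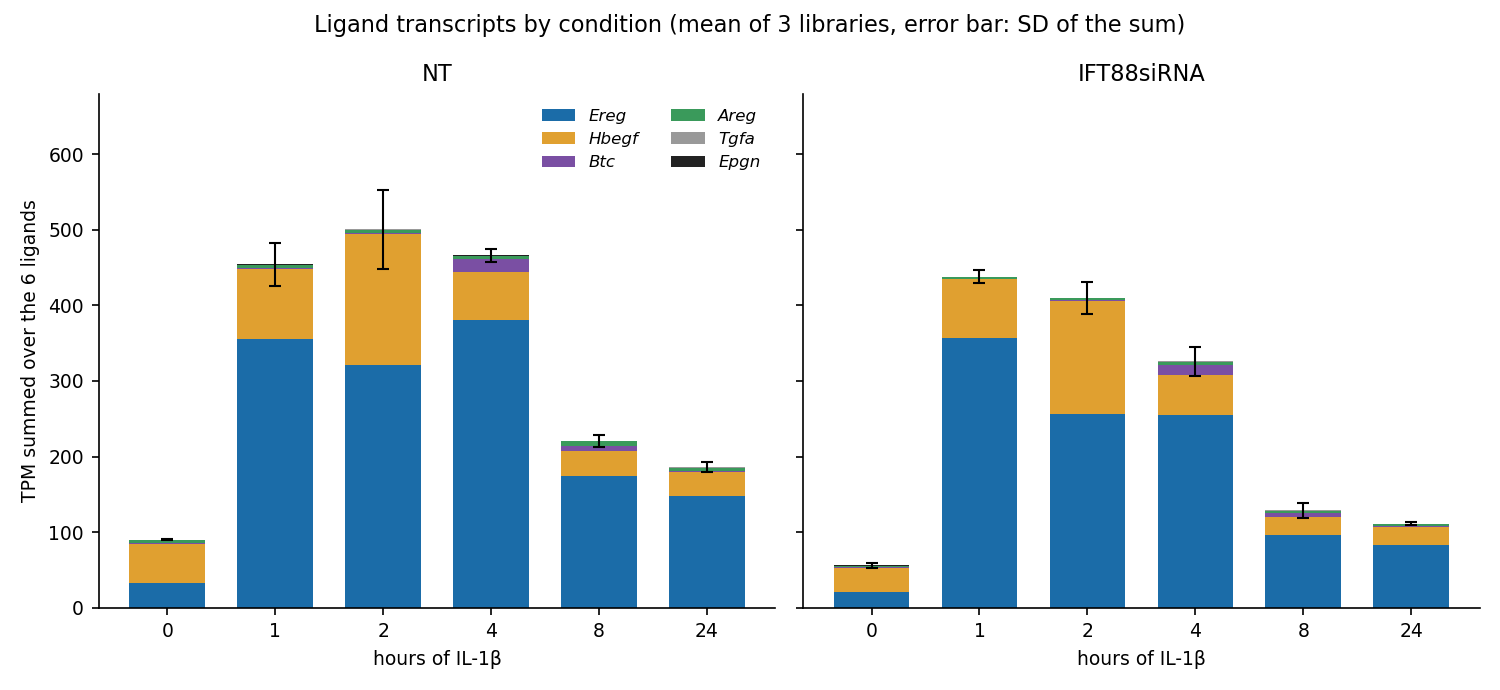
TPM summed over the 6 ligands (vertical axis, from 0) at each time of IL-1β (horizontal axis), with NT on the left and IFT88siRNA on the right; colours give the mean of each ligand over 3 libraries and error bars the SD of the sum. *Ereg* (blue) made up 37.3% of the sum at 0 h and 78.4% at 1 h in NT cells, and the sum at 24 h was 186 TPM in NT and 111 TPM in IFT88siRNA.

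The transcription start regions of *Areg* and *Errfi1* are shown because they held the same pair of motifs while the changes of their transcripts after IL-1β were of very different size, and that of *Btc* because it held none of the motifs searched. RefSeq promoter windows of 300 bases on GRCm38.p6, from 250 bases before to 50 after the start, were on hand for 6 of the 8 genes, *Areg*, *Tgfa*, *Btc*, *Epgn*, *Egfr* and *Errfi1*, the last with a pair of starts. The windows below lie at chr5:91139349-91139648 on the plus strand (*Areg*), chr4:150854820-150855119 on the plus strand (the second start of *Errfi1*) and chr5:91402945-91403244 on the minus strand (*Btc*). They are printed 5′ to 3′ along the gene, with the cAMP response element (CRE) and the TATA box in capitals.
Areg: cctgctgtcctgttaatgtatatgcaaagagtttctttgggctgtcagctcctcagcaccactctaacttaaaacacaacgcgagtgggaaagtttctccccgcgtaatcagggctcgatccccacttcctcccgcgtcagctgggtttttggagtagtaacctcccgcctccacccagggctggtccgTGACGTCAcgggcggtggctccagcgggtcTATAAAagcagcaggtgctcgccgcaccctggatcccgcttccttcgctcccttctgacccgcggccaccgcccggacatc
Errfi1: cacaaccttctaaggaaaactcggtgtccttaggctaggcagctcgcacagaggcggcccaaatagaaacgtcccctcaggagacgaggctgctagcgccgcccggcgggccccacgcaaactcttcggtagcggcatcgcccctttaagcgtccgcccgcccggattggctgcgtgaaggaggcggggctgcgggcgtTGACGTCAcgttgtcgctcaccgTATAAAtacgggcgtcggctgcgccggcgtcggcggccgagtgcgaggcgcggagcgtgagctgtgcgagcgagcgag
Btc: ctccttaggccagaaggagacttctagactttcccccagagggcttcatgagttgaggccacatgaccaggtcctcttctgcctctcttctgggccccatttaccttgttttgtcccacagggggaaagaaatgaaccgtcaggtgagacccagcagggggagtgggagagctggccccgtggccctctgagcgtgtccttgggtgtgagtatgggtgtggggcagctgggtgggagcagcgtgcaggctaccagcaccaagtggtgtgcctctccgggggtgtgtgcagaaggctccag
The CRE, TGACGTCA, began 61 bases before the start of *Areg* and 51 bases before that of *Errfi1*, and occurs in 1.79% of 32851 promoter windows of the same length. The TATA box, searched on the gene's own strand as TATAAA or TATATA, began 31 and 28 bases before the start in the same windows and in that of *Epgn* 86 bases before it, and occurs in 12.5% of all windows. A κB motif was found in the window of *Tgfa* from 22 to 31 bases after the start (8.46% of all windows). The AP-1 site TGANTCA and the CArG box, which occur in 7.81% and 1.63% of all windows, were in none of these windows, and those of *Btc*, *Egfr* and the first start of *Errfi1* held none of the 5 motifs. All motifs but the TATA box were searched on both strands, and the CRE and AP-1 letters do not match each other. A match is a description of the letters and not evidence of binding, and the absence of a match covers these windows alone. Beside these windows stand the values at 1 h in NT cells: *Errfi1* rose 16.5-fold, *Areg* differed by 1.18-fold (log2 0.24 ± 0.21, adjusted p = 0.341) and *Btc* by 1.11-fold.

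*Epgn*, *Ereg*, *Areg* and *Btc* lie side by side on mouse chromosome 5 of GRCm38, in a block of 375.5 kb. *Epgn* is at 91027464 to 91035215, *Ereg* at 91074622 to 91093646 and *Areg* at 91139599 to 91148432, all on the plus strand, and *Btc* at 91357261 to 91402994 on the minus strand. The gaps between them are 39.4, 46.0 and 209 kb. The rest of the family is scattered: *Tgfa* is on chromosome 6 (86195223 to 86275719), *Egfr* on chromosome 11 (16752203 to 16918158), *Errfi1* on chromosome 4 (150853919 to 150868892) and *Hbegf* on chromosome 18 (36504927 to 36515805, minus strand). Within the block the time courses of NT cells differed from gene to gene. In these cells *Ereg* was high from 1 h on and *Btc* at 4 and 8 h only. *Areg* in NT was at most 1.62-fold over its level of 0 h, and *Epgn* had almost no reads.

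The 11 other protein-coding genes within 500 kb of the block include the CXC chemokine genes, whose products attract neutrophils. Of the 11, *Pf4* and *5830473C10Rik* had at most 13 and 5 counts in a library and were not tested. Of the other 9, 6 rose at 1 h in NT cells, 6 at 2 h, 7 at 4 h, 7 at 8 h and 8 at 24 h, beside the shares of all genes called given above. *Cxcl1* went from 2.29 to 1420 CPM within 1 h, *Cxcl5* from 0.37 to 849 CPM at 24 h, and *Cxcl3* read 22.8 CPM and *Ppbp* 17.9 CPM at 8 h. *Cxcl2*, which had 2 counts over the 3 NT libraries of 0 h, so that no fold is given, read 58.2 CPM at 1 h, 39.3 CPM at 4 h and 2.80 CPM at 24 h. *Cxcl15* rose at 8 and 24 h (log2 0.92 and 2.21), and *Rassf6*, on the far side of the chemokines, at every time (between 1.58 and 3.91). *Mthfd2l*, the gene between the chemokines and *Epgn*, was called at 24 h alone (0.61). *Parm1*, beyond *Btc*, rose at 1, 2 and 4 h (1.0, 1.56 and 0.86) and fell at 24 h (-0.86).

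**Figure D3:**
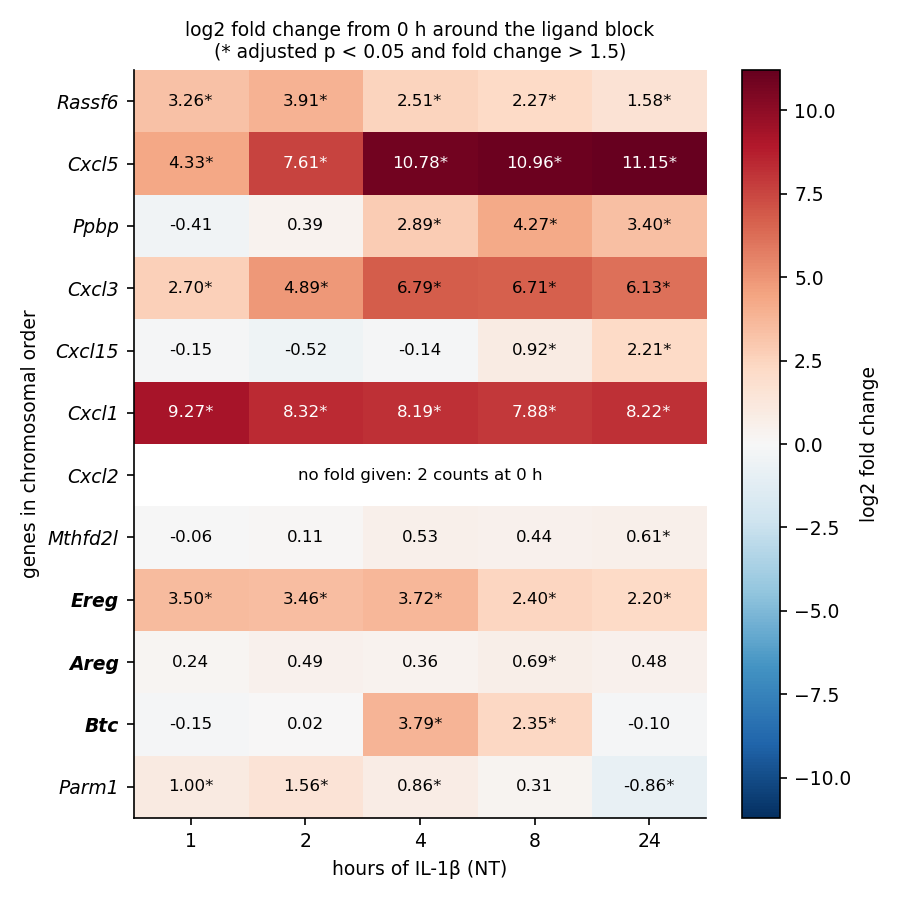
Log2 fold change from 0 h in NT cells (colour and printed value) for the genes in and around the ligand block in chromosomal order (rows, block members in bold) at each time of IL-1β (columns), with an asterisk for called changes. *Ereg* was between 2.20 and 3.72, *Areg* between 0.24 and 0.69, and *Btc* reached 3.79 at 4 h; for *Cxcl2* no fold was drawn, since it had 2 counts at 0 h.

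The genes whose mean log2 CPM over the 12 conditions was most like that of each member were looked up among the 16709 other genes that passed the low-count filter over all libraries. For *Ereg* these were *Cxcl2* (Pearson's r = 0.989), *Rnd1* (0.989) and *Ptgs2* (0.985), with *Cxcl2* and *Rnd1* equal at this rounding. *Cxcl2* is of the neighbouring chemokine group, and at 0 h it had 2 counts over the NT libraries and 0 over those of IFT88siRNA. *Errfi1* was most like *Ier5* (0.990), *Junb* (0.983) and *Nfkbia* (0.977). *Btc* was most like *Ifit1bl1* (0.994), *Trim12a* (0.994) and *Ascc3* (0.993). Among those of *Hbegf* were *Dot1l* (0.985) and *Lmbrd1* (0.983), and for *Egfr* they were *Tnfaip1* (0.978), *Ppp2r3a* (0.978) and *Osbpl8* (0.975). The likeness was looser for the genes with few counts: *Areg* with, among others, *Taf15* (0.888) and *Tmed5* (0.865), and *Tgfa* with *Rab3ip* (0.914), *Limd1* (0.901) and *Qser1* (0.899). Among the members themselves, *Ereg* and *Errfi1* had r = 0.936 and *Egfr* and *Hbegf* 0.865, while *Btc* and *Errfi1* had 0.018. The 12 points share the libraries and the time course, so these values describe a shared shape and nothing more.

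In IFT88siRNA cells, the 5 later times were compared with 0 h in the same way. *Ereg*, *Hbegf* and *Errfi1* were called at 1 h, 3 of 7 against 15.1% of 16129 genes, and *Egfr* and *Areg* joined them at 2 h, 5 of 7 against 25.6%. At 4 h 6 of 7 were higher than at 0 h (*Ereg*, *Areg*, *Hbegf*, *Tgfa*, *Btc* and *Errfi1*) against 29.3%. At 8 h 4 of 7 (*Ereg*, *Areg*, *Btc* and *Errfi1*) were higher against 17.6%, and at 24 h 3 of 7 (*Ereg*, *Areg* and *Errfi1*) against 14.2%, with none lower at any time. *Errfi1* rose 25.3-fold at 1 h (log2 4.66 ± 0.066), *Ereg* 18.3-fold at 1 h (4.19 ± 0.077), *Btc* 16.0-fold at 4 h (4.0 ± 0.19) and *Hbegf* 5.62-fold at 2 h (2.49 ± 0.058). *Areg* rose 2.42-fold at 4 h (1.27 ± 0.20, adjusted p = 5.09e-06). Its smaller rises of 1.71-fold at 2 h, 1.57-fold at 8 h and 1.67-fold at 24 h were lost without replicate 2 (adjusted p = 0.051), without replicate 1 (0.181) and without replicate 1 (0.0658). *Tgfa* rose 1.76-fold at 4 h (0.81 ± 0.25, adjusted p = 0.00734), a call that was lost without replicate 3 (adjusted p = 0.0501). *Egfr* was 1.97-fold higher at 2 h and 1.498-fold higher at 4 h, just short of the threshold (log2 0.58 ± 0.048), and was called at 4 h without replicate 1 or 2 (0.61 in both cases).

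Compared time by time, *Ereg*, *Areg* and *Hbegf* were lower in IFT88siRNA than in NT at 0 h, 3 of 7 genes where 2.23% of 15274 were called. At 1 h 1 of 7 (*Areg*) was lower against 2.66% of 14797 genes. None of the 7 was called at 2 h, where 0.496% of 14728 genes were, or at 4 h, where 0.432% of 14801 were. *Ereg* and *Areg* were again lower at 8 h, 2 of 7 against 0.692% of 15165 genes, and at 24 h, 2 of 7 against 1.15% of 15223. None was called higher at any time. The median log2 difference of the 7 was -0.56, 0.01, -0.21, -0.19, -0.51 and -0.42 from 0 to 24 h, and that of all genes tested was between -0.0029 and 0.0037.

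*Ereg* read 45.7, 37.3 and 43.1 CPM at 0 h in IFT88siRNA, all below the 64.7 to 68.2 CPM of NT. At 1 h the groups overlapped, with 805, 756 and 748 CPM in IFT88siRNA. The IFT88siRNA libraries then read 588, 632 and 578 CPM at 2 h, 535, 643 and 585 CPM at 4 h, 205, 184 and 196 CPM at 8 h and 176, 170 and 163 CPM at 24 h, each time below every NT library. The log2 differences were -0.66 ± 0.058 at 0 h (adjusted p = 3.2e-08), 0.017 ± 0.041 at 1 h, -0.29 ± 0.077 at 2 h, -0.58 ± 0.056 at 4 h, -0.86 ± 0.057 at 8 h (adjusted p = 3.67e-05) and -0.86 ± 0.05 at 24 h (adjusted p = 8.53e-08). In IFT88siRNA every library of 1 h was above those of 2 and 4 h. Steps between consecutive times were tested in NT cells alone, so whether the plateau from 1 to 4 h differed between the groups was not tested. At 4 h the difference between the groups was 1.495-fold with an adjusted p of 1.83e-05, just short of the fold-change threshold. It was called without replicate 2 (-0.62) or without replicate 3 (-0.59). Without replicate 2 the difference at 0 h was -0.57 and was not called.

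*Areg* was lower in IFT88siRNA at 0, 1, 8 and 24 h. Its libraries read 0.954, 0.950 and 1.2 CPM at 0 h against 1.77 to 2.22 CPM in NT, and 1.98, 1.42 and 1.55 CPM at 8 h against 2.78 to 3.41 CPM. At 4 h they read 2.78, 2.42 and 2.31 CPM, within reach of the 2.43 to 2.66 CPM of NT. The log2 differences were -0.92 ± 0.20 at 0 h (adjusted p = 0.00214), -0.83 ± 0.26 at 1 h (0.035), -0.64 ± 0.17 at 2 h (0.0777), -0.009 ± 0.18 at 4 h (0.986), -0.97 ± 0.18 at 8 h (0.0171) and -0.66 ± 0.16 at 24 h (0.0197). The call at 0 h held without each replicate. The call at 1 h was lost without replicate 1 (adjusted p = 0.0867) or 3 (0.186), that at 8 h without replicate 1 (0.108) or 2 (0.152), and that at 24 h without replicate 2 (0.308). DESeq2 gave 0.0733 at 1 h and 0.0637 at 24 h, so the calls at those times also depended on the test.

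*Hbegf* read 41.2, 36.4 and 38.8 CPM at 0 h in IFT88siRNA against 61.6 to 61.8 CPM in NT, a log2 difference of -0.67 ± 0.051 (1.59-fold, adjusted p = 4.35e-09). At 2 h it read 216, 224 and 216 CPM against 241 to 273 CPM. Its libraries were below all those of NT at every time, but after 0 h the log2 difference was between -0.42 and -0.21 and stayed under the fold-change threshold. *Errfi1* read 69.3, 64.6 and 68.2 CPM at 0 h against 95.7 to 103 CPM in NT (-0.56 ± 0.045, 1.48-fold, adjusted p = 9.08e-09), which was called without replicate 3 (-0.60). At 1 h it read 1794, 1618 and 1716 CPM, overlapping NT, and the differences at 8 and 24 h were -0.52 ± 0.066 and -0.55 ± 0.045. The libraries of *Errfi1* were thus below those of NT at every time but 1 h, as those of *Ereg* were, with smaller differences.

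*Egfr* was close in both groups up to 8 h, with log2 differences of -0.0098 ± 0.044 at 0 h, 0.01 ± 0.038 at 1 h, -0.088 ± 0.046 at 2 h, -0.14 ± 0.053 at 4 h and -0.053 ± 0.057 at 8 h. At 24 h it read 111, 109 and 104 CPM in IFT88siRNA against 128 to 144 CPM in NT (-0.31 ± 0.052, 1.24-fold, adjusted p = 0.00158). *Btc* was between -0.57 ± 0.27 and 0.04 ± 0.21, and at its peak of 4 h it read 22.2, 22.1 and 22.9 CPM against 24.8 to 26.1 CPM (-0.19 ± 0.067, adjusted p = 0.124). *Tgfa* lay between -0.29 ± 0.28 and 0.67 ± 0.35 with overlapping libraries at every time.

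**Figure D4:**
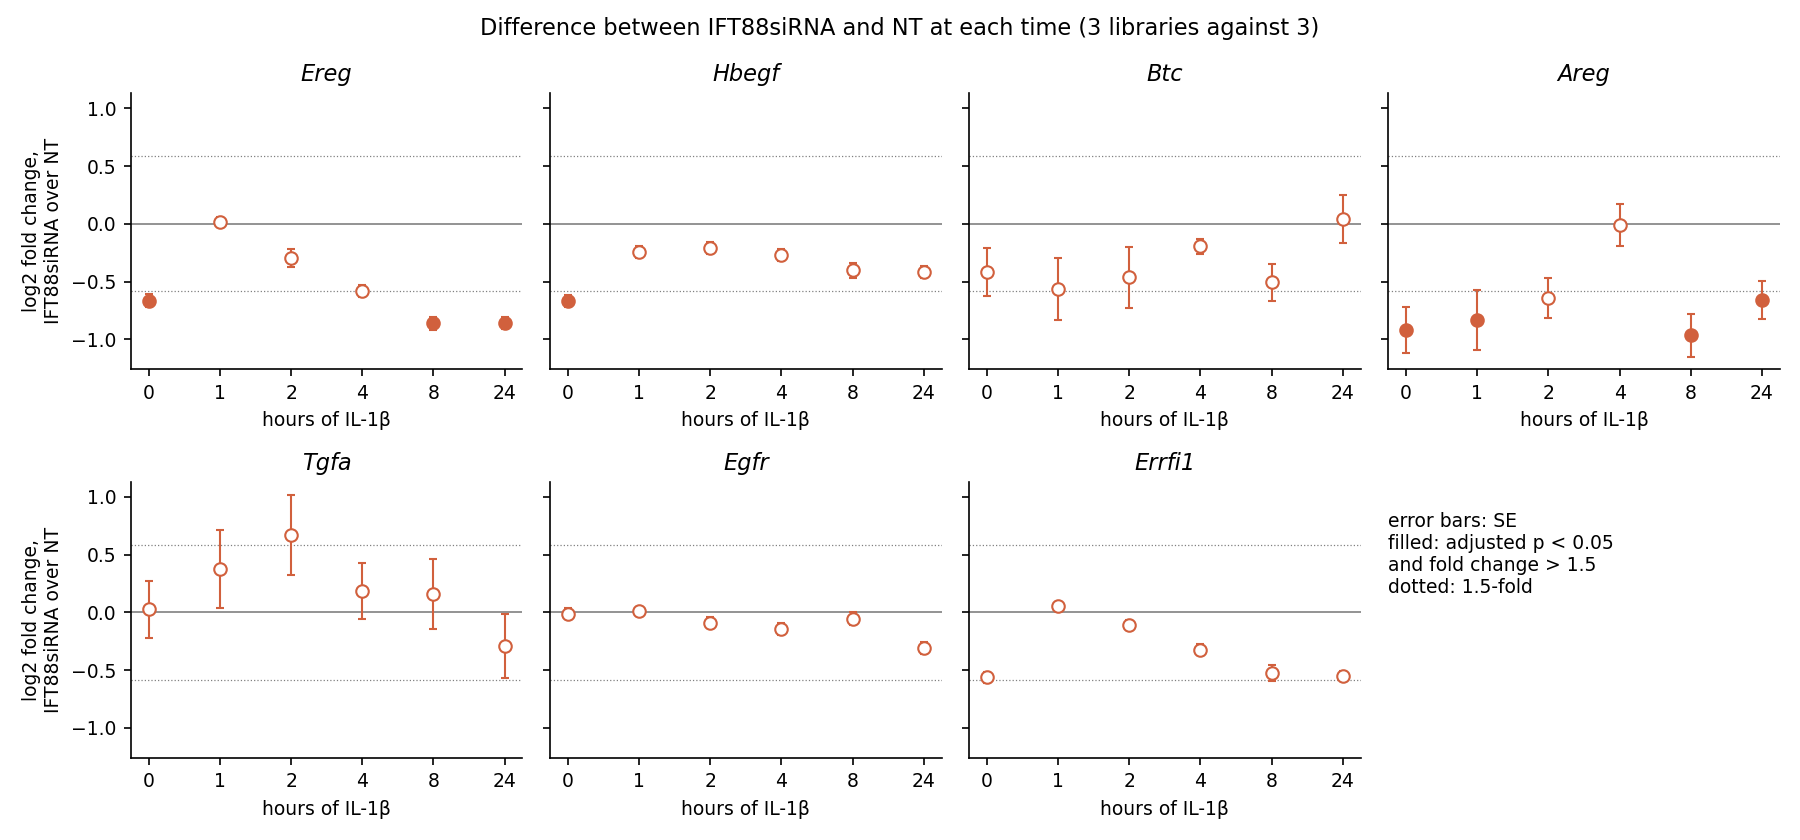
Log2 fold change of IFT88siRNA over NT (vertical axis, error bars SE) at each time of IL-1β (horizontal axis) for the 7 genes tested, with filled points for called differences and dotted lines at 1.5-fold. *Ereg* went from -0.66 at 0 h through 0.017 at 1 h to -0.86 at 24 h, and *Egfr* stayed between -0.31 and 0.01.

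The change from 0 h was compared between the groups in 1 test over the 5 later times, in all 36 libraries. It was called for 2 of the 7 genes, *Ereg* (adjusted p = 1.43e-07) and *Errfi1* (adjusted p = 6.05e-08), where 1.2% of 16710 genes were called. The rise of *Ereg* at 1 h was greater in IFT88siRNA by 0.69 on the log2 scale, and the difference then shrank to 0.37 at 2 h, 0.09 at 4 h, -0.18 at 8 h and -0.19 at 24 h. For *Errfi1* it was 0.62 at 1 h, 0.46 at 2 h, 0.25 at 4 h, 0.053 at 8 h and 0.018 at 24 h. Both genes started lower in IFT88siRNA and overlapped NT at 1 h, so the greater fold was one over a lower level at 0 h. Without replicate 1 the largest difference of *Errfi1* was 0.57 and it was not called. *Hbegf* (adjusted p = 0.00109, at most 0.46) and *Egfr* (0.0208, at most -0.30) passed the p-value threshold but not that of the fold. *Areg* (0.145), *Btc* (0.652) and *Tgfa* (0.661) did not pass it.

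The ligand sum was 56.0 ± 3.68 TPM in IFT88siRNA at 0 h against 89.8 ± 0.565 TPM in NT. At 1 h the sums were 438 ± 8.56 and 454 ± 27.8 TPM. At 4 h they were 326 ± 19.3 and 466 ± 8.22 TPM, and at 24 h 111 ± 2.28 and 186 ± 6.17 TPM. The shares differed less than the sums: *Ereg* made up 38.1% ± 0.588 of the sum at 0 h and 81.5% ± 1.45 at 1 h in IFT88siRNA. At 24 h its share was 74.3% ± 0.363 in IFT88siRNA and 79.2% ± 0.542 in NT.

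The proteins that release the ligands were described by a list of 11 genes, all tested. In NT cells 2 rose and 1 fell at 1 h, where 18.7% of all genes were called, and 5 rose and 1 fell at 4 h, where 28.7% were, when the median log2 fold change of the list was 0.56 and that of all genes -0.016. *Adam12*, which encodes a membrane protease that can release HB-EGF, rose from 0.781 to 5.51 CPM at 4 h (7.04-fold, adjusted p = 4.27e-11) and fell 11.6-fold between 8 and 24 h. *Rhbdl2*, which encodes a rhomboid protease of the membrane, fell 2.18-fold at 4 h. *Adam8*, another member of the ADAM family, was lower in IFT88siRNA at 0 h (10.2 against 18.4 CPM, 1.81-fold, adjusted p = 1e-07), 2 h (1.75-fold), 8 h (1.61-fold) and 24 h (1.54-fold), and *Adam12* at 8 h (1.55-fold, adjusted p = 0.0376).

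A list of 21 negative regulators of the receptor and its cascade had 8 that rose and none that fell at 4 h in NT cells (median 0.31), where 28.7% of all genes were called. At 1 h 1 rose and 1 fell (median -0.05), where 18.7% of all genes were called. *Lrig1*, a membrane protein that promotes the degradation of EGFR, was at 47.9 CPM at 0 h and rose to 278 CPM at 24 h (5.80-fold, log2 2.54 ± 0.052, adjusted p = 4.84e-22). In IFT88siRNA it rose 5.33-fold, from 45.3 to 242 CPM. *Spry1*, an inhibitor of the RAS-ERK cascade, fell 1.95-fold at 24 h. Its relative *Spry2* fell 2.50-fold between 4 and 8 h and was lower in IFT88siRNA at 4 h (28.6 against 45.0 CPM, 1.58-fold, adjusted p = 3.21e-05) and 8 h (1.64-fold, adjusted p = 0.00319). *Zfyve28* fell in IFT88siRNA at 4 h, from 0.429 to 0.103 CPM (log2 -1.96 ± 0.61, adjusted p = 0.00732), a change between very low levels with a sizeable counting error.

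Of 21 genes for adaptors and kinases of the RAS-ERK cascade, 1 rose and none fell at 1 h in NT cells, where 18.7% of all genes were called, and 2 rose and 3 fell at 4 h, where 28.7% were (medians 0.21 and 0.10). The scaffold gene *Ksr1* rose 2.49-fold at 8 h, the kinase gene *Map2k1* rose 2.39-fold between 2 and 4 h and the adaptor gene *Gab1* fell 1.99-fold at 4 h. None of the 21 was called between IFT88siRNA and NT at any time, where between 0.432% and 2.66% of all genes were. Of 10 other ErbB receptors and ligands 8 were tested, and 1 fell and none rose at 1 h (18.7% of all genes called). *Tmeff1* and *Tmeff2*, membrane proteins with an EGF-like domain, rose 2.25-fold and fell 2.03-fold at 4 h in NT cells. *Egf* fell 2.91-fold at 2 h in IFT88siRNA, from 2.19 to 0.75 CPM. None of the 8 was called between the siRNA groups, beside the same low shares of all genes.

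A list of 20 genes that ERK signalling is known to raise moved early: 16 rose and 4 fell at 1 h, 17 rose and 3 fell at 2 h, 14 rose and 2 fell at 4 h, and 6 rose and 4 fell at 8 h in NT cells, where 18.7%, 27.3%, 28.7% and 19.7% of all genes were called. The median log2 fold change of the list was 2.46, 1.79, 1.27 and 0.11 at these times, and -0.21 at 24 h. *Fosb*, a subunit of AP-1, rose from 3.77 to 763 CPM at 1 h (log2 7.65 ± 0.092), and *Egr3*, a zinc finger transcription factor, was 5.78-fold lower at 24 h than at 0 h. In IFT88siRNA 16 rose and 3 fell at 1 h, where 15.1% of all genes were called. Between the groups *Fosl1* was lower in IFT88siRNA at 0 h (42.1 against 67.3 CPM, 1.6-fold, adjusted p = 3.92e-09) and 24 h (1.51-fold). *Egr1* and *Fos* were lower at 4 h (1.53-fold and 1.52-fold) and *Egr2* at 8 h (1.52-fold), and no gene of the list was called higher at any time. Many of these genes are also raised by other pathways, and which of them followed from EGF receptor activity was not tested.

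**Figure D5:**
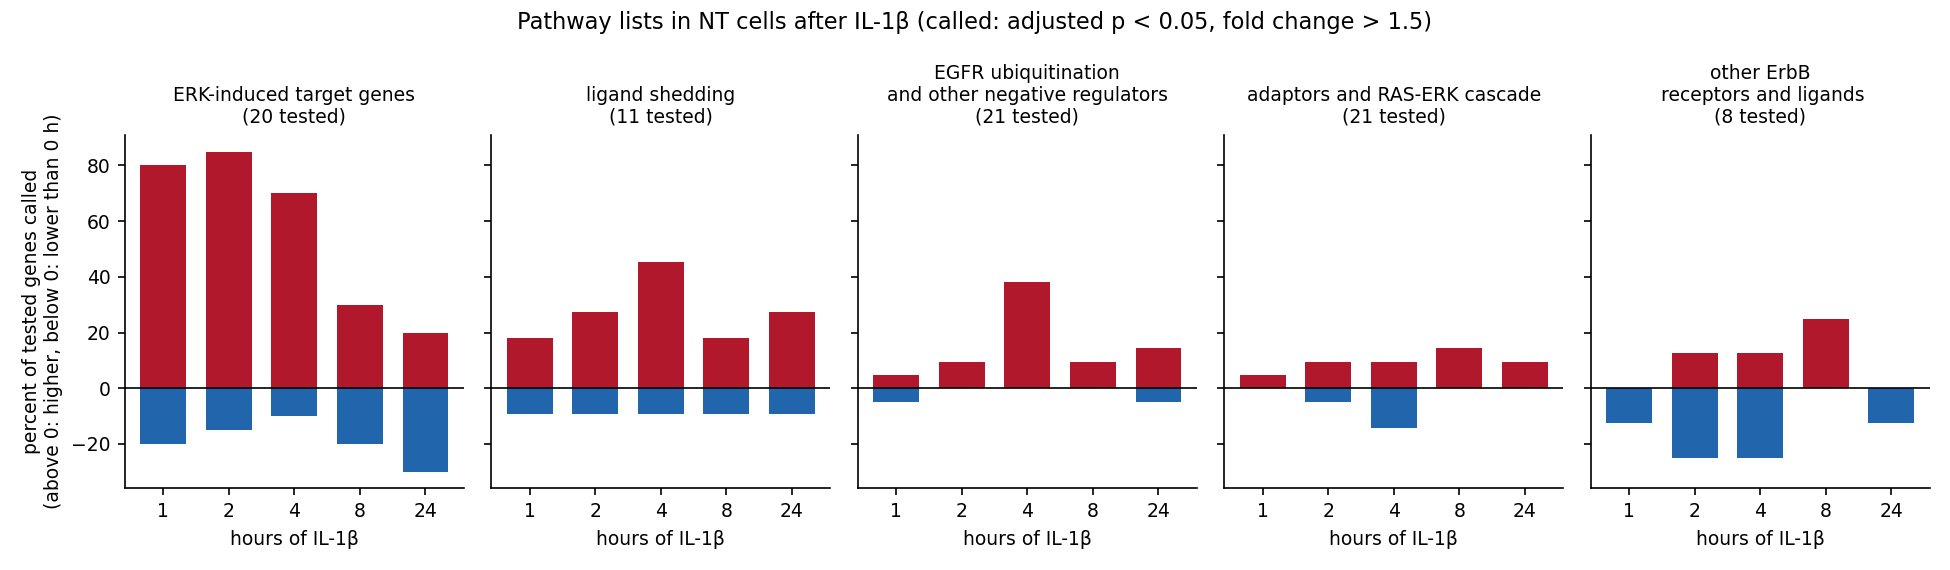
Percent of the tested genes of each pathway list that were called higher (red, above 0) or lower (blue, below 0) than at 0 h in NT cells (vertical axis) at each time of IL-1β (horizontal axis). Of the ERK-induced list 16 of 20 rose at 1 h, where 18.7% of all genes were called in either direction. Of the negative regulators 8 of 21 rose at 4 h, where 28.7% of all genes were called.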

How the data were processed

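Poly(A) RNA of 36 libraries was sequenced as paired-end reads. The authors aligned the reads to GRCm38 with HISAT2 2.1.0 and deposited raw counts per gene from featureCounts (Subread 1.6.3), as whole numbers without normalization, and per the methods with default parameters, which count without regard to strand. A second table that the authors deposited holds TPM per gene and library from Salmon 0.9.1, and all versions are from the submitters' processing notes. The methods name Ensembl as the annotation, and gene coordinates here are from GENCODE on the same build. Groups came from the sample labels.

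The count test was that of edgeR 4.0.16 in R 4.3.3 (TMM scaling, filterByExpr, quasi-likelihood F-tests, two-sided, Benjamini-Hochberg adjustment over all genes tested). The 18 libraries of each siRNA group were fitted with 1 coefficient per time, and the groups were compared within each time in 3 against 3 libraries. The 5 differences in the change from 0 h were tested together in all 36 libraries, and a fold over 1.5 was required at 1 or more times. Standard errors were derived from the F-statistic, as the size of the log2 fold change over the root of F. Log2 CPM used a prior count of 2. These steps were tested on simulated counts. Tables and figures were made in Python 3.11.15 with pandas 2.3.3 and matplotlib 3.10.9.

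The alternatives were DESeq2 1.42.0, its size factors, no filter on low counts, the p-value threshold alone, a block for the replicate number, 1 fit of all 36 libraries, leaving out each replicate number, and limma 3.58.1 on TPM as log2(TPM + 1), where at least 3 libraries had to reach a TPM of 1, as log2(TPM + 0.1), and without that filter. Named genes are the 8 members, the largest called rise and fall of each list per family of comparisons, every listed gene called between the siRNA groups, all protein-coding genes within 500 kb of the ligand block, and the 3 genes most like each member, of which some are not reported here. *Cdh1* and the other cell type markers were named after their values were seen. The members and lists were chosen with earlier results of these data known. Sequences are from RefSeq promoter tables (GRCm38.p6). No column of the tables was left without a sample.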

Additional observations from a re-analysis of the deposited data

Results flagged for a closer look

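The change of *Ereg* from 0 h differed between IFT88siRNA and NT in the test of that difference over the 5 later times (edgeR, adjusted p = 1.43e-07), and most at 1 h, where the rise was greater in IFT88siRNA by 0.69 on the log2 scale. The level at 0 h was 42.0 CPM in IFT88siRNA and 66.6 CPM in NT, and that at 1 h was 770 and 757 CPM.

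The change of *Errfi1* differed in the same test (adjusted p = 6.05e-08), and most at 1 h, by 0.62 on the log2 scale. Its level at 0 h was 67.4 CPM in IFT88siRNA and 99.4 CPM in NT, and that at 1 h was 1709 and 1641 CPM. Groups of 3 libraries were too small to be searched for single libraries that stand apart.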

How the results depend on the processing

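Calls are counted here as gene-by-time pairs over the 7 genes tested. Between IFT88siRNA and NT there were 8. With log2(TPM + 1) there were 5, with log2(TPM + 0.1) 5, with log2(TPM + 1) and no filter 4, and with no fold-change threshold 18. Leaving out 1 replicate gave 6 to 9. With DESeq2 the calls of *Areg* at 1 and 24 h were lost, as given above. A different response was called for 2 genes, and with log2(TPM + 1) for 1, with log2(TPM + 1) and no filter for 1, with no fold-change threshold for 4, and without 1 replicate for 1 to 2. Over all settings the calls after IL-1β ranged from 16 to 25 in NT (18 as reported) and from 17 to 26 in IFT88siRNA (21 as reported), and those between consecutive times from 9 to 18 (12 as reported). The cause of these differences was not tested. No log2 fold change with a call turned its direction under any alternative.

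In the fit with a replicate block the counts were 19 in NT, 21 in IFT88siRNA, 12 between consecutive times, 8 between the groups and 2 for the response. No pairing by number was seen. Between the siRNA groups, the deviations correlated over 0.1 in 2 of 18 same-numbered pairs and in 4 of 36 other pairs. Within each time course they did so in 0 of 15 same-numbered pairs. With 3 libraries per group, these values cannot show that the samples were unpaired. The block added the call of *Tgfa* at 4 h in NT (adjusted p = 0.0431). Low counts limit *Areg*, *Tgfa* and *Epgn*, and the log2(TPM + 1) scale understates their fold changes.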
